A study of Mus musculus with 6 samples.

Results

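The interferon-induced genes and GTPases described here are 40 genes of mouse liver, out of 55471 genes in the count tables. They were taken by name, after matching the Ensembl identifiers of the tables to gene symbols, and the rule uses no measured value. They fall into 30 targets of type I interferon and 10 GTPases, of which 5 are guanylate-binding proteins (Gbp2, Gbp3, Gbp6, Gbp7 and Gbp9) and 5 are immunity-related GTPases (Igtp, Irgm1, Irgm2, Iigp1 and Tgtp1). All 40 had enough counts to be tested.

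Livers of male C57BL/6J mice, an inbred laboratory strain, were sequenced after a 4 h fast (3 mice) and after a 16 h fast (3 mice). All 6 animals were wild type, and the labels name no infection, interferon or drug treatment in either group. The shorter fast served as the reference, so every change below is 16 h relative to 4 h. Each library was treated as 1 mouse, as the labels give 3 mice per group.

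Interferons are secreted proteins that cells release when their sensors meet viral or misplaced nucleic acid. Type I interferon acts through the kinases Jak1 and Tyk2 and a complex that holds Stat2 and Irf9, which binds the interferon-stimulated response element (ISRE) in promoters of antiviral genes. Interferon gamma acts mainly at the gamma-activated site (GAS), and induces the guanylate-binding proteins and immunity-related GTPases, which attack the vacuoles of microbes inside cells. Many of these genes are also transcribed at a low level without infection, in hepatocytes and in the macrophages and endothelium of the liver.

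Promoter sequences are shown for some of the members, because matches to the response elements can be read in them. The windows came from RefSeq (build GRCm38.p6) and ran from 250 bases before to 50 bases after a gene's start. Windows were found for 30 of the 40 members. Dhx58, Zbp1, Mx1, Usp18, Parp9, Parp14, Ifi27, Gbp6, Gbp9 and Iigp1 had none. Each stretch below reads 5′ to 3′ along the gene's own strand, and capitals mark every match to the ISRE core GAAANNGAA or the GAS core TTCNNNGAA, searched on both strands, where N is any base. An ISRE core on the opposite strand therefore appears as TTCNNTTTC. Bst2, Ifit3 and Gbp7 are members that fell, Rsad2 and Ifit1 stood high in 1 mouse, Isg15 and Gbp3 carry overlapping cores, and Igtp, Irgm1, Irgm2 and Tgtp1 are immunity-related GTPases. Overlapping cores are also found in Bst2, Ifit1 and Irgm1. The stretches of Bst2, Gbp7, Igtp, Irgm2 and Tgtp1 hold both cores, and the others shown hold the ISRE core only. Oasl2, Herc6 and Xaf1, which also fell, had a window with neither core and are not shown. Ifi44 fell too and had an ISRE core at base -3 from the gene start, and its stretch is likewise not shown.
Bst2, chr8:71537573-71537623, minus strand: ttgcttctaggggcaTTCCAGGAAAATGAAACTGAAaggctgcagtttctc
Ifit3, chr19:34583359-34583450, plus strand: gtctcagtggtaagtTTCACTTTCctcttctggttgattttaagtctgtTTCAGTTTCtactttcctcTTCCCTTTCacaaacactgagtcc
Gbp7, chr3:142530215-142530307, plus strand: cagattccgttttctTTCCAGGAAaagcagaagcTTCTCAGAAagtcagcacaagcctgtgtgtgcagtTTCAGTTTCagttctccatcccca
Rsad2, chr12:26456548-26456586, minus strand: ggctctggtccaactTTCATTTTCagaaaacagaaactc
Ifit1, chr19:34640765-34640828, plus strand: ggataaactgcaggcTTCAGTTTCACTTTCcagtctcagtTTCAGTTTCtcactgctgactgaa
Isg15, chr4:156200861-156200911, minus strand: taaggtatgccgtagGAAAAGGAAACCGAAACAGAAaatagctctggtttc
Gbp3, chr3:142559985-142560029, plus strand: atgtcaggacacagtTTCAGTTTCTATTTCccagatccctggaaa
Irgm1, chr11:48871421-48871465, minus strand: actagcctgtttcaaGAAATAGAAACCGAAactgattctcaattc
Igtp, chr11:58199496-58199545, plus strand: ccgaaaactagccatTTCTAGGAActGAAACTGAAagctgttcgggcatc
Irgm2, chr11:58214887-58214936, plus strand: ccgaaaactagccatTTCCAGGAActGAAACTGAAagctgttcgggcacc
Tgtp1, chr11:48992300-48992349, minus strand: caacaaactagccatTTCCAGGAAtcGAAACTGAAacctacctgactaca

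The ISRE core was found in the windows of 19 of the 30 members (63.3%). Some genes have more than 1 start, and by window the core was in 20 of 34 (58.8%), against 2812 of 32851 promoter windows of the same length (8.56%). It was in 7 of 7 GTPases with a window and in 12 of 23 type I targets (52.2%). The GAS core was in 8 of the 30 members (26.7%), in 4 of the 7 GTPases (57.1%) and in 4 of the 23 type I targets (17.4%). By window it was in 8 of 34 (23.5%), against 2726 of all windows (8.3%). In Bst2 the GAS core at base -136 overlaps the first of 2 overlapping ISRE cores, at -130 and -124, counted from the gene start. In Igtp, Irgm2 and Tgtp1 the ISRE core begins 11 bases after the start of the GAS core, and the 50-base stretches of Igtp and Irgm2 are identical at 48 positions. The stretch of Tgtp1 matched those of Igtp and Irgm2 at 34 and 36 positions. A match is a string of letters and not a measured binding site, and of 34 windows of members 27 had the bases after their start inside a GENCODE M21 transcript of the same gene.

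Depth lay between 15173653 and 26572532 gene counts per library, and levels below are in CPM, the usual depth-scaled counts, with library sizes adjusted by TMM factors. Alb, the main secreted protein of hepatocytes, was at 54457 to 68085 CPM in the 6 libraries, all labelled liver. The library of mouse 3 of the 4 h fast stood apart. Lung epithelium genes summed to 178 CPM there and to 4.83 to 7.82 CPM elsewhere, and neutrophil genes summed to 18.2 CPM there and to 2.57 to 4.27 CPM elsewhere. Libraries of 1 group differed by more than sampling noise in every pair, so none was counted as a duplicate. In bulk tissue, fewer cells of a type and less RNA per cell cannot be told apart.

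A minority of these genes was lower after the longer fast and none was higher. By edgeR's quasi-likelihood test, with Benjamini-Hochberg adjustment over 13812 genes and a call at an adjusted p under 0.05, 9 of the 40 members fell, 0 rose and 31 did not pass. The members that fell were Ifit3, Oasl2, Bst2, Herc6, Ifi27, Ifi44, Xaf1, Gbp6 and Gbp7. Over all tested genes 9.51% were lower and 9.17% were higher after 16 h. The median log2 fold change was -0.39 over the members and -0.03 over all tested genes, and 35 of the 40 members had a negative value. All 3 libraries of the 16 h fast were below all 3 of the 4 h fast for 13 members, where 19.7% of tested genes had that order. The reverse order was found for 0 members and for 19.7% of tested genes.

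The count of members that fell depended on which mice entered the fit. Without mouse 1 of the 4 h fast it was 2, without mouse 2 of the 16 h fast 1 and without mouse 3 of the 16 h fast 1. Without mouse 2 or mouse 3 of the 4 h fast it was 6 each, and without mouse 1 of the 16 h fast 8. The count over all tested genes was also smaller in fits with 2 mice after 16 h. It was 823, 715 and 696 genes lower when mouse 1, 2 or 3 was left out, against 1313 with all mice. At least 1 fit without a 4 h mouse had more genes lower than the fit with all mice. Every fit without a 4 h mouse had fewer members that fell. Of the members Bst2 alone passed in all 6 fits without 1 mouse.

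Type I targets and GTPases gave close values when set side by side. Of the 30 type I targets 7 fell (23.3%), with a median log2 fold change of -0.34, and 10 had the 16 h libraries entirely below the 4 h libraries. Of the 10 GTPases 2 fell, both of them guanylate-binding proteins, with a median of -0.39, and 3 had that order. Over all tested genes 9.51% fell and 19.7% had that order, and the counts by role below stand beside the same shares. The fits without 1 mouse gave medians from -0.58 to -0.25 for the type I targets and from -0.57 to -0.18 for the GTPases. In both classes the lowest of these came without mouse 1 of the 16 h fast. The GTPase count was 0 without mouse 1 or 2 of the 4 h fast and without mouse 2 or 3 of the 16 h fast, and 1 without mouse 3 of the 4 h fast. The type I count was 2 without mouse 1 of the 4 h fast, and 1 without mouse 2 or without mouse 3 of the 16 h fast.

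The 3 mice of the 16 h fast did not look alike in these genes. The median over type I targets of the log2 deviation from each gene's mean was 0.23, 0.11 and 0.05 in mice 1, 2 and 3 of the 4 h fast, and 0.12, -0.31 and -0.35 in those of the 16 h fast. For the GTPases the medians were 0.11, 0.36 and -0.03 after 4 h, and 0.17, -0.30 and -0.34 after 16 h. Mouse 1 of the 16 h fast thus lay among the 4 h mice in both classes, and mice 2 and 3 lay below them. Of the 40 members 16 had their lowest value in mouse 2 of the 16 h fast and 20 in mouse 3, and neither mouse held the highest value of any member. Mouse 1 of the 16 h fast held the highest value of 9 members.

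**Figure D1:**
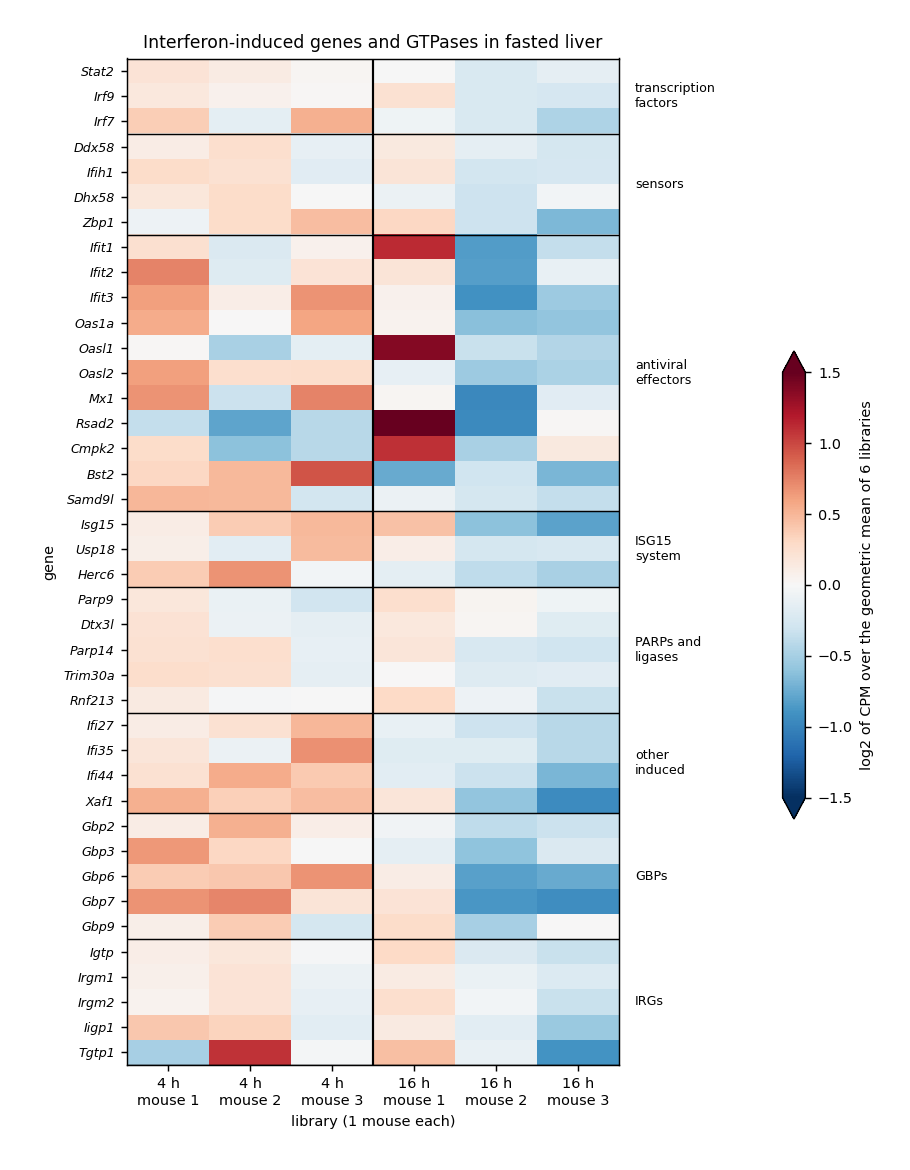
Level of each of the 40 members in each library as log2 of CPM over the gene's geometric mean in the 6 libraries (colour, saturated beyond the ends of the scale), with genes in rows grouped by role and the 3 mice of each fast in columns. Blue prevails in mice 2 and 3 of the 16 h fast, while mouse 1 of the 16 h fast is mixed and has its darkest red at Rsad2, Oasl1, Ifit1 and Cmpk2.

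Transcription factors of the response did not pass the test. Stat2 and Irf9 are parts of the complex that binds the ISRE, and Irf7 drives the amplification of type I interferon. Stat2 had the highest level per length of the 3. It was at 90.1, 85.2 and 80.0 CPM in the 4 h mice and at 78.0, 66.8 and 71.4 CPM in the 16 h mice. The groups did not overlap, but the log2 fold change of -0.24 ± 0.11 (SE) had an adjusted p of 0.137. Irf7 was at 30.1, 21.0 and 33.6 CPM after 4 h and at 22.2, 19.9 and 16.9 CPM after 16 h, so that mouse 2 of the 4 h fast lay within the 16 h range. Its log2 fold change was -0.53 ± 0.17, with an adjusted p of 0.0521, and of 0.00773 without that mouse. DESeq2 gave Irf7 an adjusted p of 0.0396. Irf9 had a log2 fold change of -0.15 ± 0.14 and overlapping groups.

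Sensors of foreign nucleic acid also stayed short of the threshold, 4 of 4. Ddx58 (RIG-I), Ifih1 (MDA5) and Dhx58 (LGP2) are RNA helicases, and Zbp1 binds nucleic acid in the Z form. Ifih1, the highest of them per length, was at 35.3, 34.3 and 25.9 CPM after 4 h and at 33.5, 24.1 and 24.4 CPM after 16 h. Zbp1 was at 3.67, 4.70 and 5.32 CPM after 4 h and at 4.80, 3.13 and 2.43 CPM after 16 h. In both genes mouse 1 of the 16 h fast lay among the 4 h mice. The log2 fold change was -0.22 ± 0.16 for Ifih1 (adjusted p 0.355) and -0.39 ± 0.26 for Zbp1 (adjusted p 0.321). Dhx58, at -0.29 ± 0.15, was the sensor whose groups did not overlap, and Ddx58 was at -0.16 ± 0.14.

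The antiviral effectors held the member with the clearest fall and the members with the widest scatter. Of 11 effectors 3 fell, Bst2, Oasl2 and Ifit3, with a median log2 fold change of -0.51. Bst2 (tetherin, chr8:71534255-71537456) holds budding virus particles at the cell surface and was the most abundant member per length, at 128 CPM per kb over the 6 libraries. It was at 130.5, 147 and 202 CPM in the 4 h mice and at 62.1, 85.8 and 65.5 CPM in the 16 h mice. Every 16 h mouse lay below every 4 h mouse. Bst2 was 2.25-fold lower after 16 h, a log2 fold change of -1.17 ± 0.18 (95% interval -1.56 to -0.78, adjusted p 0.0014). Leaving out any 1 mouse gave adjusted p-values between 0.00085 and 0.0108. Its highest value stood in the library with lung and neutrophil genes, and without that library its log2 fold change was -0.95 with an adjusted p of 0.0011.

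Ifit3, which binds viral RNA together with other IFIT proteins, and Oasl2, of the oligoadenylate synthetase family, fell less. Ifit3 (chr19:34583531-34588731) was at 11.4, 7.98 and 11.9 CPM after 4 h and at 7.82, 3.97 and 5.10 CPM after 16 h. The groups were separated only by the gap between mouse 2 of the 4 h fast and mouse 1 of the 16 h fast. Its log2 fold change was -0.88 ± 0.24 (adjusted p 0.0272), and the adjusted p was 0.0801 and 0.0904 without mouse 1 or 3 of the 4 h fast, and 0.0988 and 0.106 without mouse 2 or 3 of the 16 h fast. Oasl2 (chr5:114896936-114912234) was at 5.77, 4.51 and 4.54 CPM after 4 h and at 3.47, 2.59 and 2.71 CPM after 16 h. Here the groups stood well apart for so small a level. Its log2 fold change was -0.76 ± 0.21 (adjusted p 0.0255), and the adjusted p was 0.117 without mouse 1 of the 4 h fast, and 0.0971 and 0.104 without mouse 2 or 3 of the 16 h fast.

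Rsad2, Oasl1, Ifit1 and Cmpk2 behaved differently from the other effectors, and were picked out after their values were seen. Rsad2 (viperin) and its neighbour Cmpk2 act on nucleotide pools, Oasl1 is an oligoadenylate synthetase relative and Ifit1 binds foreign RNA caps. Rsad2 was at 11.3, 8.37 and 10.8 CPM after 4 h and at 81.3, 7.46 and 14.6 CPM after 16 h. Oasl1 was at 10.5, 7.40 and 9.39 CPM after 4 h and at 26.8, 8.25 and 7.65 CPM after 16 h. In both genes the high value was that of mouse 1 of the 16 h fast, 5.59 and 2.56 times the highest of the other 5 libraries. Ifit1 was at 8.16, 5.92 and 7.20 CPM after 4 h and at 15.1, 3.85 and 5.39 CPM after 16 h. Cmpk2 was at 8.01, 4.31 and 4.96 CPM after 4 h and at 14.04, 4.69 and 7.28 CPM after 16 h. The same mouse was highest again, by 1.85 and 1.75 times.

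None of these 4 passed the test, and their intervals were wide. Rsad2 had a log2 fold change of 1.76 ± 1.04 (95% interval -1.05 to 4.57, adjusted p 0.32), and 0.14 without mouse 1 of the 16 h fast. Without that mouse the log2 fold change of Cmpk2 went from 0.58 to 0.06, that of Ifit1 from 0.20 to -0.60 and that of Oasl1 from 0.65 to -0.19. In mouse 1 of the 16 h fast 4 of 40 members (10%) exceeded 1.5 times the highest other library, against 60 of 13812 tested genes (0.434%). In the other 5 libraries this held for 0 or 1 member, and the comparison was chosen after the values were seen. The chemokine Cxcl10, a further interferon target that is no member, showed the same order, with 2.54, 1.995 and 3.03 CPM after 4 h and 8.18, 1.08 and 1.65 CPM after 16 h. In the same mouse the beta globin Hbb-bs was at 5.11 CPM, against 19.9 to 38.4 CPM in the others, and whether the 2 are related was not tested.

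**Figure D2:**
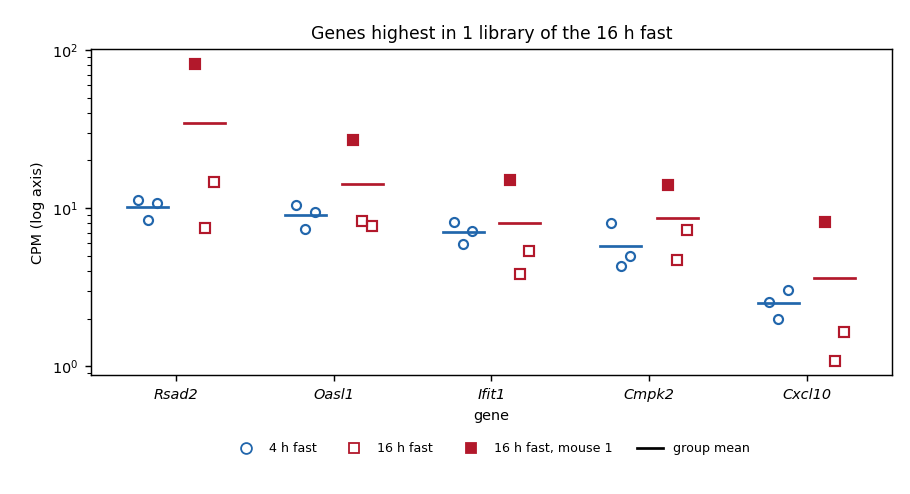
CPM of Rsad2, Oasl1, Ifit1, Cmpk2 and Cxcl10 in each library on a log axis, with circles for the 4 h fast, squares for the 16 h fast, a filled square for mouse 1 of the 16 h fast and a line for each group mean. The filled square is the highest point for each gene, from 81.3 CPM for Rsad2 to 8.18 CPM for Cxcl10, and the open squares lie near or below the circles.

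The other 4 effectors had negative values and did not pass. Oas1a, an RNA-activated synthetase, was at -0.76 ± 0.30 (adjusted p 0.096). The GTPase Mx1, which in the C57BL/6 background is known to carry a defective allele, was at -0.74 ± 0.35 (adjusted p 0.158). Ifit2 was at -0.49 ± 0.31 and Samd9l at -0.51 ± 0.20. Samd9l passed without mouse 3 of the 4 h fast (adjusted p 0.0034). Values of Oas1a and Ifit3 are uncertain to the extent that reads were shared with near-identical copies, since the handling of such reads is not given.

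In the ISG15 system 1 of 3 members fell. Isg15 is a ubiquitin-like protein, Usp18 removes it from its targets and Herc6 is a ligase that attaches it in mouse. Isg15, the highest of them per length, was at 6.28, 7.53 and 8.14 CPM after 4 h and at 7.86, 3.79 and 3.33 CPM after 16 h. Mouse 1 of the 16 h fast lay among the 4 h mice. The log2 fold change of -0.54 ± 0.29 had an adjusted p of 0.231, and without that mouse it was -1.03 with an adjusted p of 0.0114. Herc6 (chr6:57581000-57664632) was at 8.82, 10.7 and 6.57 CPM after 4 h and at 6.09, 5.18 and 4.81 CPM after 16 h. Its groups did not overlap. It fell by 0.70 ± 0.20 on the log2 scale (adjusted p 0.0298), and passed only in the fit without mouse 3 of the 4 h fast among the 6 that left out 1 mouse, with adjusted p-values from 0.0515 to 0.125 in the others. Exons of another gene on the same strand cover 13.7% of its exon bases. Usp18 was at -0.29 ± 0.18.

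The ADP-ribosyltransferases and ubiquitin ligases were the flattest type I group. Parp9 and Dtx3l form a complex that modifies histones, Parp14 is a related enzyme, and Trim30a and Rnf213 are ligases. None of the 5 passed and the median log2 fold change was -0.05. Parp9, the highest of them per length, was at 51.5, 42.6 and 37.4 CPM after 4 h and at 54.3, 46.9 and 43.7 CPM after 16 h. Trim30a, with the largest difference, was at 5.40, 5.28 and 4.07 CPM after 4 h and at 4.49, 3.91 and 3.99 CPM after 16 h. Both genes had overlapping groups. Parp9 had a log2 fold change of 0.14 ± 0.14 (95% interval -0.16 to 0.43) and Trim30a of -0.25 ± 0.19 (95% interval -0.66 to 0.16). Dtx3l (95% interval -0.28 to 0.28) and Rnf213 (95% interval -0.37 to 0.27) centred near 0, and Parp14 was at -0.23 ± 0.15.

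The remaining type I targets are a short list of 4 genes. All 4 had the 16 h libraries entirely below the 4 h libraries, an order found for 19.7% of all tested genes. Of the 4 genes 3 fell, Ifi27, Ifi44 and Xaf1, against 9.51% of all tested genes. Ifi27 (chr12:103434211-103440239), which encodes a small hydrophobic membrane protein, was at 88.8, 96.4 and 116 CPM after 4 h and at 75.6, 65.9 and 61.4 CPM after 16 h. Its fall of 0.57 ± 0.13 on the log2 scale had an adjusted p of 0.0105, which became 0.0584 and 0.0654 without mouse 2 or 3 of the 16 h fast. Next to Bst2 it was the most abundant member per length, at 57.3 CPM per kb. Xaf1 (chr11:72301629-72313733), a promoter of apoptosis, was at 6.21, 5.47 and 5.90 CPM after 4 h and at 4.84, 2.83 and 2.22 CPM after 16 h. It fell by 0.83 ± 0.26 (adjusted p 0.0451). The 4 h mice were tightly grouped and mouse 1 of the 16 h fast lay nearest to them. Without that mouse the adjusted p of Xaf1 was 0.00659, and without any other mouse it lay between 0.0633 and 0.168.

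Ifi44 and Ifi35 stood near the threshold on either side of it. Ifi44 (chr3:151730922-151749960), the least abundant member per length at 0.373 CPM per kb, was at 2.57, 3.22 and 2.87 CPM after 4 h and at 1.96, 1.75 and 1.36 CPM after 16 h. It fell by 0.77 ± 0.24 (adjusted p 0.0472), but passed in none of the fits without 1 mouse, where the adjusted p ran from 0.0659 to 0.176, and DESeq2 gave 0.0874. Ifi35 had a log2 fold change of -0.55 ± 0.18 and an adjusted p of 0.0567, or 0.016 without mouse 2 of the 4 h fast. Exons of an antisense gene cover 16.8% of its exon bases, and the strand setting of the counting is not given.

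**Figure D3:**
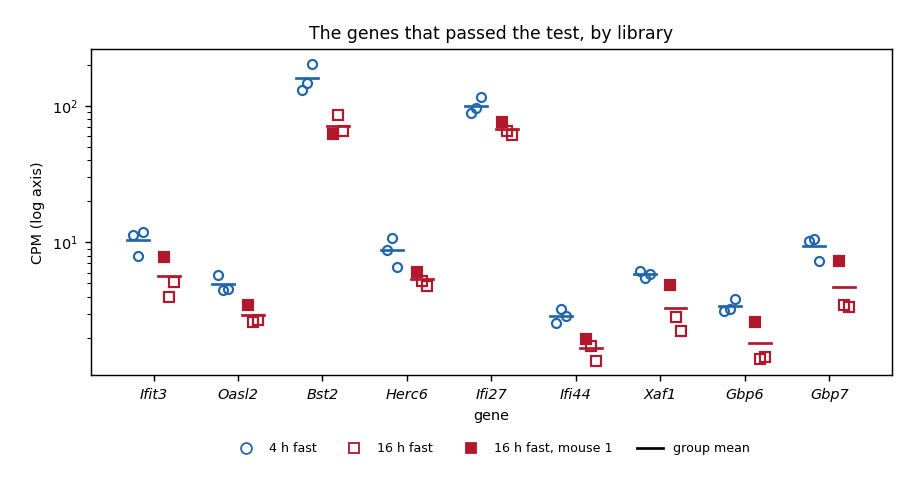
CPM of the 9 members that passed the test in each library on a log axis, with circles for the 4 h fast, squares for the 16 h fast, a filled square for mouse 1 of the 16 h fast and a line for each group mean. Circles and squares do not overlap except for Gbp7, and the filled square is the highest of the 16 h values for each gene but Bst2, where it is the lowest at 62.1 CPM.

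Among the guanylate-binding proteins, large GTPases that coat and break up vacuoles of microbes, 2 of 5 fell and 3 of 5 had groups that did not overlap. The median log2 fold change was -0.65. Gbp7 (chr3:142530342-142550149) was at 10.1, 10.6 and 7.30 CPM after 4 h and at 7.33, 3.49 and 3.33 CPM after 16 h. The groups touched, since mouse 1 of the 16 h fast lay just above mouse 3 of the 4 h fast. It fell by 0.98 ± 0.29 on the log2 scale (adjusted p 0.0427). Gbp6 (chr5:105270702-105293698) was at 3.16, 3.22 and 3.86 CPM after 4 h and at 2.62, 1.38 and 1.44 CPM after 16 h, and fell by 0.90 ± 0.28 (adjusted p 0.0426). Both passed without mouse 1 of the 16 h fast (adjusted p 0.00273 for Gbp7 and 0.0144 for Gbp6) and in no other fit without 1 mouse, where the adjusted p ran from 0.0651 to 0.137 for Gbp7 and from 0.0625 to 0.165 for Gbp6. Exons of other genes on the same strand cover 29% of the exon bases of Gbp6 and 11.3% of those of Gbp7, and Gbp6 has a near-identical neighbour in Gbp10, so both values are uncertain.

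The other 3 guanylate-binding proteins did not pass. Gbp3, the highest of the 5 per length, was at 6.87, 5.47 and 4.38 CPM after 4 h and at 4.00, 2.89 and 3.78 CPM after 16 h. Every 16 h mouse lay below every 4 h mouse. Its log2 fold change of -0.65 ± 0.22 had an adjusted p of 0.0583, or 0.0181 without mouse 3 of the 4 h fast. Gbp2 was at -0.49 ± 0.23 (adjusted p 0.158) with groups that did not overlap, and Gbp9 at -0.12 ± 0.23 with groups that did.

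The immunity-related GTPases, which mark and disrupt such vacuoles with or against each other, gave small differences and 0 of 5 passed. Their median log2 fold change was -0.14, and it was -0.03 without mouse 2 of the 4 h fast and -0.35 without mouse 1 of the 16 h fast. Iigp1 (Irga6) was the highest of the GTPases per length, at 52.2 CPM per kb. It was at 393, 373 and 266 CPM after 4 h and at 325, 264 and 202 CPM after 16 h. The groups overlapped, and the log2 fold change of -0.38 ± 0.19 (95% interval -0.81 to 0.04) had an adjusted p of 0.188. Iigp1 passed with the replicate number as a block (adjusted p 0.0295) and with no filter on low counts (adjusted p 0.0386). Tgtp1 (Irgb6), with the largest difference on the log2 scale, was at 1.25, 3.73 and 1.72 CPM after 4 h and at 2.40, 1.63 and 0.946 CPM after 16 h. Mouse 2 of the 4 h fast was above all others there, and without it the log2 fold change went from -0.39 ± 0.45 to 0.19. Tgtp1 has a near-identical copy, Tgtp2, and its value is uncertain for that reason.

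Igtp (Irgm3), Irgm1 and Irgm2 are the regulatory members that keep the other GTPases off host membranes. Igtp had a log2 fold change of -0.14 ± 0.16 (95% interval -0.50 to 0.22). Irgm1 was at -0.12 ± 0.12 (95% interval -0.39 to 0.15) and Irgm2 at -0.08 ± 0.15 (95% interval -0.40 to 0.25). The intervals of all 3 leave out a fall as large as that estimated for Bst2. A difference between guanylate-binding proteins and immunity-related GTPases was not tested.

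**Figure D4:**
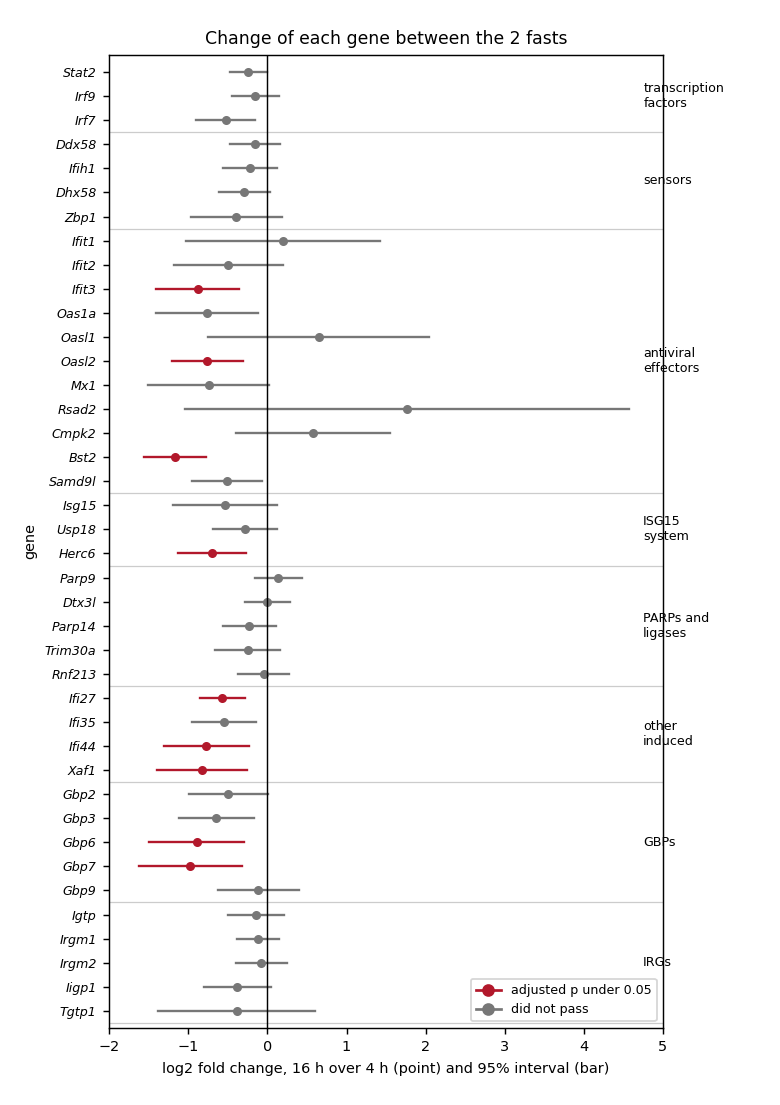
Log2 fold change of each of the 40 members, 16 h over 4 h (points), with its 95% interval (bars), grouped by role; red marks an adjusted p under 0.05. The 9 red intervals lie entirely below 0, and so do the grey ones of Stat2, Irf7, Oas1a, Samd9l, Ifi35 and Gbp3. The intervals, unlike the colours, are not adjusted for the number of genes. The widest grey interval is that of Rsad2, from -1.05 to 4.57.

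Order by level per length ran from Bst2 through Ifi27 and Iigp1, whose ranges over mice overlapped, to Stat2 at 13.3 CPM per kb. After these came Irgm2 at 10.9, Igtp at 9.48, Parp9 at 9.46, Dtx3l at 8.73, Isg15 at 8.14 and Ifi35 at 8.11 CPM per kb. Neighbours among these 6 genes overlapped in their ranges over mice. Members that fell stood at both ends of the order, with Bst2 the highest and Ifi44 the lowest. Members with an ISRE core had a median log2 fold change of -0.39 and those without it of -0.49, and the core was in 4 of 7 members that fell and had a window, against 15 of 23 that did not pass. Members with a GAS core had a median of -0.52 and those without it of -0.25, and the core was in 2 of 7 members that fell and had a window, against 6 of 23 that did not pass.

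Genes of the pathway around the members were counted from lists of 126 genes, of which 103 were tested. In these lists the gene highest in CPM, not divided by length, is named as such. Of these 25 fell and 6 rose, with a median log2 fold change of -0.42, against 9.51% and 9.17% of all tested genes. Without mouse 2 of the 16 h fast 16 fell, without mouse 3 of the 16 h fast 13 fell, and without mouse 1 of the 16 h fast 3 rose. Interferons themselves were not detectable for the most part. Of 13 genes 10 had 0 counts in every library, which allows up to 0.0239 CPM over the 6 libraries, and Ifnab, Ifnk and Ifng had 1, 6 and 5 counts in all.

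Receptors and kinases were nearly level, with 1 of 8 tested genes lower, a median of 0.09 and Jak1, the highest in CPM, at 0.21 ± 0.11. The kinase Tyk2 fell by 0.44 ± 0.12 (adjusted p 0.0238), and passed only without mouse 3 of the 4 h fast (adjusted p 0.00474) or mouse 1 of the 16 h fast (adjusted p 0.0484). Il10rb, the shared receptor chain of interferon lambda, was at -0.63 ± 0.23 (adjusted p 0.0784). Of 9 other STAT and IRF factors 3 fell. Irf2, a competitor of activating factors at the ISRE, was at 88.9, 88.6 and 77.0 CPM after 4 h and at 48.8, 53.6 and 59.8 CPM after 16 h, a fall of 0.65 ± 0.11 (adjusted p 0.00269). Irf5, a factor of myeloid cells, fell by 0.96 ± 0.18 (adjusted p 0.00434) and Irf1, a factor induced by interferon gamma, by 0.63 ± 0.13 (adjusted p 0.00725). These 3 passed in all 6 fits without 1 mouse. Exons of other genes cover 14.1% of the exon bases of Irf5, with the largest overlap on the opposite strand. The strand setting of the counting is not given. The highest in CPM, Stat3, was at 0.26 ± 0.13 (adjusted p 0.181).

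Brakes on the signal went both ways, with 3 higher and 1 lower of 12 tested. The phosphatase Ptpn11 rose by 0.72 ± 0.10 (adjusted p 8e-04) and was also the highest in CPM. The corepressor Irf2bp2 rose by 0.72 ± 0.16 (adjusted p 0.00932), and both passed in all 6 fits without 1 mouse. Pias2, a ligase for the ubiquitin-like SUMO, rose by 0.43 ± 0.12 (adjusted p 0.031), with 0.0832, 0.115 and 0.0806 without mouse 1, 2 or 3 of the 16 h fast. Cish, a cytokine-induced SOCS family member, fell by 2.35 ± 0.46 (adjusted p 0.0159), and passed only without mouse 1 (0.00412) or mouse 3 (1.2e-05) of the 4 h fast. Exons of another gene cover 20.5% of the exon bases of Irf2bp2. In the relay from sensors to interferon genes 1 of 13 rose and 1 fell. The ligase Trim25, also the highest of the relay in CPM, was at 98.5, 74.5 and 88.7 CPM after 4 h and at 133, 124 and 107 CPM after 16 h. It rose by 0.47 ± 0.13 (adjusted p 0.0272), with 0.0692 without mouse 2 of the 4 h fast, and 0.0991 and 0.1 without mouse 1 or 2 of the 16 h fast. The RNA receptor Tlr3 fell by 0.67 ± 0.19 (adjusted p 0.0311), and passed only without mouse 3 of the 4 h fast (adjusted p 0.037) or mouse 1 of the 16 h fast (adjusted p 0.025).

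Of 37 other tested type I targets 8 fell and 1 rose, with a median of -0.45. The count that fell was 5 without mouse 3 of the 16 h fast. Ifitm3, which blocks virus entry through membranes, was at 294, 295 and 374 CPM after 4 h and at 127, 139 and 118 CPM after 16 h. It fell by 1.33 ± 0.13 (adjusted p 6.6e-05), and Ube2l6, the enzyme that passes ISG15 to its ligases, fell by 0.95 ± 0.14 (adjusted p 8.23e-04). Both passed in all 6 fits without 1 mouse. The highest of this list in CPM, Lgals9, was at -0.30 ± 0.11 (adjusted p 0.0753). The gene that rose was Tor3a, at 1.14 ± 0.27 (adjusted p 0.0182), which did not pass without mouse 3 of the 4 h fast (0.125) or without mouse 1 (0.0573) or 3 (0.0666) of the 16 h fast.

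Of 13 other tested GTPases of these and related families 5 fell and 1 rose, with a median of -0.82. Without mouse 1 of the 4 h fast 2 fell, without mouse 2 of the 4 h fast 3, without mouse 2 of the 16 h fast 3 and without mouse 3 of the 16 h fast 2. Gbp11, annotated as a polymorphic pseudogene, was at 10.7, 21.1 and 13.3 CPM after 4 h and at 5.91, 3.19 and 3.95 CPM after 16 h. Its fall was 1.76 ± 0.29 (adjusted p 0.00287). Irgq, a relative of the immunity-related GTPases, rose by 0.85 ± 0.14 (adjusted p 0.00188), and both passed in all 6 fits without 1 mouse. The highest in CPM, Gm4951, was at -0.20 ± 0.13 (adjusted p 0.299). Of 12 tested targets of interferon gamma 7 fell and 0 rose, with a median of -0.75 and 4 falling without mouse 3 of the 16 h fast. Their leading genes encode subunits of the immunoproteasome, which cuts peptides for antigen presentation. Psmb10 fell by 1.27 ± 0.18 (adjusted p 7.71e-04) and Psmb9 by 0.91 ± 0.18 (adjusted p 0.00502), both in all 6 fits without 1 mouse, and the peptide transporter Tap1, the highest in CPM, was at -0.41 ± 0.14 (adjusted p 0.0653).

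Markers of cells that carry interferon-induced transcripts were measured in the same libraries. The 11 genes of Kupffer cells and macrophages summed to 145 to 261 CPM after 4 h and to 136 to 165 CPM after 16 h, and 1 of the 11, Timd4, fell (adjusted p 0.0354, and passing without mouse 1 of the 4 h fast but not when any other mouse was left out). Of the 11 genes 10 had negative log2 fold changes, with a median of -0.28, where the median of the members was -0.39. The count that fell was 3 under DESeq2, 3 with plain library totals, 4 with no filter on low counts and 2 with the replicate block. Clec4f was at -0.60 ± 0.20 (adjusted p 0.0636, and 0.022 by DESeq2) and C1qa at -0.70 (adjusted p 0.0532, and 0.0161 by DESeq2). Without mouse 2 of the 4 h fast 3 fell and the median was -0.40, and without mouse 3 of the 4 h fast 0 fell, 1 rose and the median was -0.13. Genes of T and NK cells summed to 3.78 to 5.60 CPM after 4 h and to 1.69 to 3.78 CPM after 16 h. Of these 10 genes 2 had enough counts to be tested and 0 passed. Cd4, the highest in CPM, was at 1.87, 3.54 and 2.24 CPM after 4 h and at 1.02, 0.42 and 1.93 CPM after 16 h. It made up a large part of these sums, and its adjusted p was 0.105. Genes of B and plasma cells summed to 2.51 to 5.69 CPM and 2.02 to 2.62 CPM, with Jchain the highest in CPM. Of these 6 genes 3 were tested and 0 passed. Endothelial genes summed to 130 to 148 CPM and 134 to 169 CPM, with Stab1 the highest in CPM. The 6 genes listed for plasmacytoid dendritic cells include Bst2 itself, and their defining gene Siglech was at 0.06 to 0.73 CPM in all libraries. Stellate cell genes, with Dcn the highest in CPM, summed to 140 to 202 CPM and 130 to 192 CPM. Of these 6 genes Col1a1 alone fell, by 1.46 ± 0.25 on the log2 scale (adjusted p 0.00373). It passed in all 6 fits without 1 mouse. Of 5 hepatocyte genes tested Ttr and Fgb fell and Cps1 rose. Cholangiocyte genes, with Spp1 the highest in CPM, summed to 41.3 to 57.3 CPM and 37.0 to 44.7 CPM. Csf3r was the highest in CPM of the neutrophil genes and Scgb1a1 of those of lung epithelium. Red blood cell genes summed to 148 to 175 CPM after 4 h and to 53.4 to 99.1 CPM after 16 h, and Alas2, the highest of them in CPM, fell by 1.09 ± 0.11 on the log2 scale (adjusted p 7.4e-05). In these marker lists CPM was not divided by length, and per length other genes lead some of them. The part of these cells in the values of the members was not tested.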

How the data were processed

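RNA was extracted from 6 livers with TRIzol and a column with a DNase step, per the labels' protocols. Reads were trimmed with Trimmomatic, inspected with FastQC, aligned to GRCm38 (mm10) with STAR and counted per gene with HTSeq, and DESeq2 served for the study's own comparison, per the submitters' processing notes. The sources used here do not give versions, annotation release, strand setting or the handling of reads with several places. For each Ensembl gene the authors deposited a raw whole-number count. Reads outside genes (6.44% to 7.14% of a library) and in several genes (5.78% to 6.59%) stayed out of library sizes. Symbols, positions and exon lengths came from GENCODE M21, which held 55144 of 55471 identifiers (99.41%).

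The filterByExpr function of edgeR 4.0.16 (R 4.3.3) kept 13812 genes (99.88% of counts). Each was fitted by robust quasi-likelihood with the fasting group as the term and TMM scaling. The 2-sided p-values were adjusted by the Benjamini-Hochberg method over all tested genes. SE was derived from that fit, as the size of the log2 fold change over the square root of the F statistic of its test. The 95% intervals were built from these SE values and are not adjusted for the number of genes. The biological coefficient of variation was 14.3%. Levels per length are CPM per kb of exon. The fit was tested on simulated data. Where a gene had 0 counts, up to 3 were allowed for, a limit that covers counting error only. Alternatives were DESeq2 1.42.0, RLE factors, plain library totals, no filter on low counts, a replicate block and leaving out each mouse.

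The rule for the members uses names alone, but members and lists were proposed with earlier results of these data known. Values in every library were given for members that passed and, in each role, for the highest per length and the largest difference. Of each pathway list the 2 smallest adjusted p-values and the gene highest in CPM were named, and of each marker list the gene highest in CPM. Other genes named with values were chosen after their values were seen.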

Additional observations from a re-analysis of the deposited data

How the results depend on the processing

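Of the 40 members, 39 kept direction and side of the threshold under RLE factors, 37 each under DESeq2 and plain library totals and 33 with no filter on low counts. No member rose under any alternative run. The number that fell was 9 under DESeq2 and RLE factors, 6 with plain library totals and 13 with no filter. Of the GTPases 4 fell with no filter and 1 with plain library totals. Fits without 1 mouse gave 1 to 8 falling members, 1 to 6 type I targets, 0 to 2 GTPases and a type I median of -0.58 to -0.25. Over all tested genes these fits gave 671 to 1594 genes higher and 696 to 1393 lower. Dtx3l, at -0.000147, turned positive under DESeq2 (0.018), RLE factors (0.010), no filter (0.020) and the replicate block (0.0031). Without 1 mouse its log2 fold change ran from -0.069 to 0.14, that of Rnf213 from -0.23 to 0.095, Gbp9 from -0.30 to 0.059, Irgm2 from -0.23 to 0.064, Tgtp1 from -0.77 to 0.19, Ifit1 from -0.60 to 0.52 and Oasl1 from -0.19 to 0.96. The fits without 1 mouse also held fewer mice, and the cause of these shifts was not tested. Depth left Mx1 with 13 counts in its lowest library, the smallest of the members.

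With the replicate number as a block, 9 members, 6 type I targets and 3 GTPases fell, with Iigp1 gained and Ifi44 lost. The labels do not say that the replicate number marks a pair, so the numbers were not taken to pair the mice. Correlations of same-numbered mice were 0.118, 0.0976 and 0.0741. Every mouse correlated best with its own number, a hint from the data and not from the design.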
